A study of Saccharomyces cerevisiae with 42 samples.

Results

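The microarrays of this yeast series carry probes against introns as well as against open reading frames (ORFs), and the intron probes are described here beside the ORF probe of the same gene. Members were all rows of the level tables whose identifier marks an intron of a named ORF. There were 268 such rows among 8635, from 254 host genes. Of these, 90 lay in genes of cytosolic ribosomal proteins (symbols that begin with RPL or RPS), 164 in other nuclear genes and 14 in mitochondrial genes. The 2 intron rows of tRNA genes were left out. An intron was tested where it had a value in all 12 level columns, which held for 208 introns (88 RPL/RPS, 109 other nuclear, 11 mitochondrial). The ORF row of the same gene was tested too for 188 of them, 86 RPL/RPS and 102 other nuclear, and these are called pairs below. The remaining 60 introns were not tested, 20 because they had no value at all and 40 because some values were missing.

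Cultures of Saccharomyces cerevisiae were sampled at 60 min in 1 M sorbitol, a hyperosmotic shock given at 25 °C, and at 0 min, before the shock. The strains were hog1del, in which HOG1, the gene of the osmotic stress kinase, is deleted, HOG1-CCAAX and HOG1-GFP, and the labels describe none beyond its name. A CAAX sequence at the end of a protein is a known signal for lipid attachment, and GFP is green fluorescent protein. Of 3 biological replicates, replicate 1 has no intron values, so every intron value has n = 2, replicates 2 and 3. Where these replicates do not come from independent cultures, the p-values measure technical spread. No culture left unshocked for 60 min was included, so sorbitol, elapsed time and handling cannot be told apart.

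Introns of nuclear ORFs are, in general, removed from the primary transcript by the spliceosome, which joins the flanking exons and releases the intron as a lariat. The lariat is opened by the debranching enzyme Dbr1 and degraded, unless a small nucleolar RNA (snoRNA) inside it is trimmed out and kept. In budding yeast few genes have introns, but ribosomal protein genes are strongly enriched among them and supply a large share of all spliced transcripts. A signal at the probe of a nuclear intron can therefore come from unspliced precursor, from lariat that has not been degraded, or from a snoRNA. Transcripts of ribosomal proteins are known to fall in many stresses of yeast, hyperosmotic shock included.

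A level here is the log2 ratio of the sample to a common reference pool, and a response is the level at 60 min minus that at 0 min in the same strain and replicate. Levels of different probes are not set against each other, only responses. A response passed where limma gave an adjusted p under 0.05 over all 7132 rows tested. Each column held values for 218 to 246 introns, and duplicate features on a slide correlated at 0.956 to 0.990 across introns. The strain labels held in every column used, with HOG1 at -3.20 to -3.64 in hog1del and at -0.34 to 0.60 in HOG1-CCAAX and HOG1-GFP. The GFP row lay at -4.67 to -5.39 in hog1del and at -0.15 to 0.53 in HOG1-CCAAX, and the KANMX4 marker row was high only in HOG1-GFP. Which introns lie near the array background was not tested, as no intensities were used.

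Most introns responded above their host ORFs after the shock, in each strain. The response of the intron exceeded that of its host, past the test, in 130 of 188 pairs in hog1del (69.1%), 137 in HOG1-CCAAX (72.9%) and 130 in HOG1-GFP (69.1%). The intron was below its host in 9 pairs in hog1del (4.79%), 10 in HOG1-CCAAX (5.32%) and 11 in HOG1-GFP (5.85%). In 115 pairs the intron was above its host in all 3 strains, and in 6 it was below in all 3. The median difference of intron minus host was 1.03, 1.14 and 1.01 log2 units in hog1del, HOG1-CCAAX and HOG1-GFP.

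Taken by themselves, introns as a whole rose more often than they fell, though RPL/RPS introns fell more often in hog1del and HOG1-CCAAX. In hog1del 80 of 208 introns rose and 49 fell, where 70.1% of all rows passed, 33.7% rising and 36.5% falling. In HOG1-CCAAX 77 rose and 55 fell, with 70.2% of all rows passing, 35.3% rising and 34.9% falling. In HOG1-GFP 86 rose and 24 fell, with 65.6% of all rows passing, 32.7% rising and 32.9% falling. The share of introns that rose, 38.5% in hog1del and 37.0% in HOG1-CCAAX, was thus near the background in these strains. The share that fell was below the background in each strain, at 23.6%, 26.4% and 11.5% in hog1del, HOG1-CCAAX and HOG1-GFP. The 226 host ORFs, by contrast, fell more often, and they include genes whose intron was not tested. Of them, 38 rose and 137 fell in hog1del, 40 rose and 140 fell in HOG1-CCAAX, and 44 rose and 127 fell in HOG1-GFP. The HOG1-GFP intron count rested on its replicates unequally: it was 45 rising and 16 falling without HOG1-GFP replicate 2, and 90 rising and 7 falling without HOG1-GFP replicate 3.

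**Figure D1:**
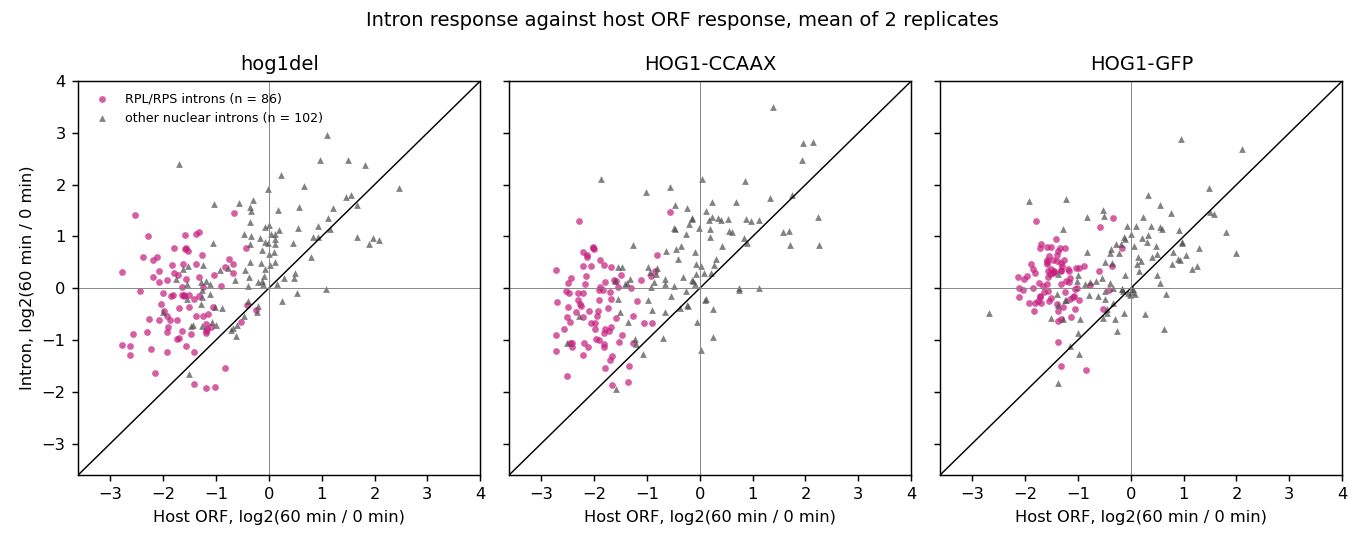
Mean response of each intron (vertical axis, log2 of 60 min over 0 min) against that of its host ORF (horizontal axis, same unit) in hog1del, HOG1-CCAAX and HOG1-GFP, for 86 RPL/RPS pairs (circles) and 102 other nuclear pairs (triangles). The diagonal marks equal responses. The RPL/RPS introns lie in a cloud around 0 while their hosts lie to the left, and the other pairs spread along the diagonal and mostly above it.

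The contrast was widest in the genes of ribosomal proteins. Their ORFs fell almost without exception, in 82 of 85 host genes in hog1del, 84 in HOG1-CCAAX and 82 in HOG1-GFP, and the mean response of all 85 was below 0 in every strain. Their introns went both ways: of 88, 22 rose and 37 fell in hog1del, 17 rose and 42 fell in HOG1-CCAAX, and 32 rose and 11 fell in HOG1-GFP. The shares that rose were 25%, 19.3% and 36.4%, beside 33.7%, 35.3% and 32.7% of all rows. Those that fell were 42.0%, 47.7% and 12.5%, beside 36.5%, 34.9% and 32.9%. Under an ORF that fell, the intron fell in 36 of 83 pairs in hog1del, 42 of 85 in HOG1-CCAAX and 11 of 83 in HOG1-GFP. Median intron responses were -0.14, -0.33 and 0.22 in hog1del, HOG1-CCAAX and HOG1-GFP, beside median host responses of -1.60, -1.94 and -1.40. The intron stood above its host in 71 of 86 RPL/RPS pairs in hog1del, 77 in HOG1-CCAAX and 80 in HOG1-GFP, and below it in 2, 0 and 1. Median differences were 1.38, 1.60 and 1.64 log2 units in the same order. In 69 of the 86 pairs the intron was above its host in all 3 strains.

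Direction of the RPL/RPS introns themselves was less firm than their distance from the hosts. In HOG1-GFP the median intron response was 0.47 in replicate 2 and -0.07 in replicate 3, while the hosts had -1.40 and -1.42. Without HOG1-GFP replicate 2, 8 RPL/RPS introns rose and 8 fell in HOG1-GFP, and without HOG1-GFP replicate 3, 39 rose and 3 fell. Without hog1del replicate 2, 17 rose and 28 fell in hog1del, and without HOG1-CCAAX replicate 3, 10 rose and 34 fell in HOG1-CCAAX. The pairs moved less, with 64 to 74 of 86 above the host in hog1del, 73 to 77 in HOG1-CCAAX and 68 to 81 in HOG1-GFP over all such omissions.

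**Figure D2:**
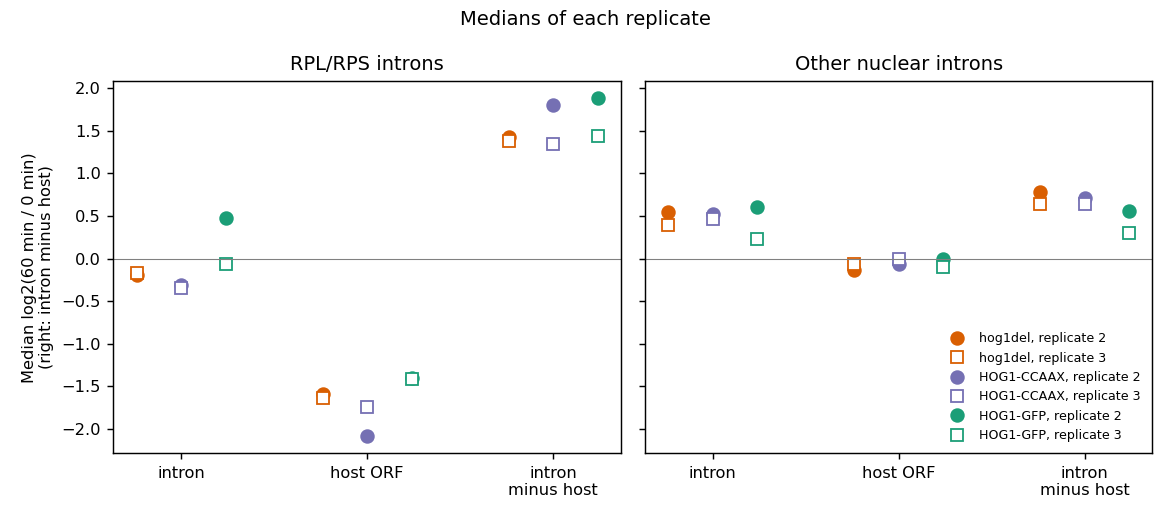
Median response in each replicate (filled circles, replicate 2; open squares, replicate 3) of introns, of host ORFs, and of the difference of intron minus host, for RPL/RPS introns (left) and other nuclear introns (right), in log2 units. RPL/RPS hosts sit between -2.09 and -1.40 in every strain and replicate, whereas their introns sit between -0.35 and 0.47.

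Opposite calls for intron and host occurred in one direction only. In RPL/RPS genes the intron rose while its ORF fell in 19 pairs in hog1del, 14 in HOG1-CCAAX and 27 in HOG1-GFP. The reverse, an intron that fell beside an ORF that rose, was found by limma in 0 pairs in each strain. It could occur only where the ORF rose. That held for 0 RPL/RPS pairs, and for 27 other nuclear pairs in hog1del, 27 in HOG1-CCAAX and 31 in HOG1-GFP. The clearest case was RPS27B, which encodes a protein of the small ribosomal subunit. Its intron had levels of 0.47 and 0.48 at 60 min against -1.02 and -0.87 at 0 min in hog1del, 0.41 and 0.35 against -1.01 and -0.83 in HOG1-CCAAX, and 0.54 and 0.25 against -1.03 and -0.78 in HOG1-GFP. The levels at 60 min lay above those at 0 min in all 3 strains, with no overlap. The RPS27B intron responded by 1.42 ± 0.10 in hog1del, 1.30 ± 0.17 in HOG1-CCAAX and 1.30 ± 0.37 in HOG1-GFP (SD, n = 2 each). The RPS27B ORF fell by 2.52 ± 0.13, 2.28 ± 0.64 and 1.79 ± 0.48 in the same strains. The difference was the widest among RPL/RPS pairs, at 3.94 ± 0.23, 3.59 ± 0.81 and 3.09 ± 0.11 log2 units (adjusted p = 8.51e-06, 5.99e-06 and 1.83e-05, limma).

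Introns of other ribosomal protein genes had the same form. The intron of RPL33B, a large-subunit protein, rose by 1.01 ± 0.04, 0.69 ± 0.02 and 0.80 ± 0.27 in hog1del, HOG1-CCAAX and HOG1-GFP while the ORF fell in each strain, with replicate responses of -2.28 and -2.28 in hog1del, -2.14 and -2.27 in HOG1-CCAAX, and -1.40 and -1.61 in HOG1-GFP. The RPL43A intron rose by 1.04 ± 0.04, 0.80 ± 0.23 and 0.96 ± 0.22, and its ORF fell by 1.38 ± 0.23, 2.02 ± 0.42 and 1.41 ± 0.16. The highest intron responses among RPL/RPS genes belonged to RPS30A, at 1.46 ± 0.08, 1.47 ± 0.13 and 1.35 ± 0.48, and there the ORF was among the few that did not pass, with responses of -0.67 ± 0.43, -0.57 ± 0.76 and -0.33 ± 0.22 (adjusted p = 0.0533, 0.0867 and 0.291, limma).

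Within the ribosomal protein genes, the responses of intron and ORF were weakly related. Across the 86 pairs the intron and host responses correlated at -0.02 to 0.19 in the 6 strain and replicate combinations, although intron responses had SDs of 0.51 to 0.81 across genes. Across the 102 other nuclear pairs the same correlation was 0.47 to 0.58. Host responses had SDs of only 0.42 to 0.60 across the RPL/RPS pairs, against 0.87 to 1.07 across the other nuclear pairs. A narrower range of host responses can by itself lower a correlation, and the difference between the groups was not tested. Each correlation is over genes measured on the same arrays, which are not independent replicates. Most yeast ribosomal proteins are encoded by duplicated genes, and 36 families had an intron tested in both copies, A and B. Both introns stood above their hosts in 27 families in hog1del, 31 in HOG1-CCAAX and 32 in HOG1-GFP. Responses of the 2 introns of a family correlated at 0.10, 0.16 and 0.13 over families. Their median absolute difference was 0.62, 0.68 and 0.33 log2 units, against 0.49, 0.28 and 0.36 for the ORFs. The copies lay farthest apart in RPL43 in hog1del, where the A intron had 1.04 and the B intron -1.09, and in HOG1-CCAAX, with a gap of 2.01, and in RPS27 in HOG1-GFP, with a gap of 1.23. As the copies have near-identical coding sequence and no probe sequences were given, signal shared between ORF probes of a family was not tested.

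Other nuclear genes with introns did not share the fall of the ribosomal protein genes, and their introns rose more often. Of 109 such introns, 56 rose and 12 fell in hog1del, 60 rose and 12 fell in HOG1-CCAAX, and 53 rose and 13 fell in HOG1-GFP. Medians were 0.46, 0.44 and 0.42, beside medians of -0.12, -0.09 and -0.06 for the 141 host ORFs, which include hosts of introns not tested. The intron was above its host in 59 of 102 pairs in hog1del, 60 in HOG1-CCAAX and 50 in HOG1-GFP, and below in 7, 10 and 10. In HOG1-GFP these pair counts were 30 above and 4 below without HOG1-GFP replicate 2, and 41 above and 2 below without HOG1-GFP replicate 3. The pairs below numbered 4 in hog1del without hog1del replicate 3 and 6 in HOG1-CCAAX without HOG1-CCAAX replicate 2. The introns that fell numbered 8 and 4 in HOG1-GFP without HOG1-GFP replicates 2 and 3, and 7 in HOG1-CCAAX without HOG1-CCAAX replicate 2.

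Introns of these genes followed the direction of the host in part. Where the ORF rose, the intron rose in 23 of 27 pairs in hog1del, 24 of 27 in HOG1-CCAAX and 26 of 31 in HOG1-GFP, and fell in 0 of them by limma. Where the ORF did not pass, the intron rose in 19 of 34, 16 of 33 and 14 of 33 pairs. Where the ORF fell, the intron rose in 14 of 41, 17 of 42 and 10 of 38 pairs and fell in only 8, 10 and 10.

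The largest rise of any nuclear intron was that of HNT1, which encodes an adenosine 5′-monophosphoramidase. Its levels were 1.12 and 1.10 at 60 min against -1.90 and -1.81 at 0 min in hog1del, 1.63 and 1.56 against -1.95 and -1.85 in HOG1-CCAAX, and 0.95 and 1.04 against -1.81 and -1.96 in HOG1-GFP. All levels at 60 min were above 0 and all levels at 0 min below it. The HNT1 intron rose 7.82-fold, 11.3-fold and 7.34-fold, and the HNT1 ORF rose 2.13-fold, 2.60-fold and 1.93-fold in hog1del, HOG1-CCAAX and HOG1-GFP. Second in HOG1-GFP came the intron of OM14, a protein of the mitochondrial outer membrane. It rose 3.51-fold, 7.04-fold and 6.42-fold beside an ORF that rose 2.95-fold, 4.43-fold and 4.31-fold, so that the pair difference was 0.25 ± 0.06 in hog1del (adjusted p = 0.222, limma), 0.67 ± 0.24 in HOG1-CCAAX and 0.58 ± 0.18 in HOG1-GFP. Introns of HNT2, a dinucleoside triphosphate hydrolase, of NYV1, a vacuolar SNARE, and of MRK1, a kinase of the GSK-3 family, rose as well. Their responses were 2.19, 2.10 and 1.80 for HNT2, 2.48, 2.06 and 1.46 for NYV1, and 2.47, 2.80 and 1.62 for MRK1 in hog1del, HOG1-CCAAX and HOG1-GFP.

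CIN2 showed the widest gap of any pair. It encodes a GTPase-activating protein that acts in tubulin folding. Its intron had levels of 1.39 and 1.34 at 60 min against -0.96 and -1.09 at 0 min in hog1del, 0.81 and 0.67 against -1.35 and -1.40 in HOG1-CCAAX, and 0.47 and 0.59 against -1.13 and -1.17 in HOG1-GFP. The intron rose in every replicate and the ORF fell in every replicate. The CIN2 intron rose 5.25-fold, 4.34-fold and 3.20-fold, and its ORF was 3.25-fold, 3.65-fold and 3.79-fold lower. Intron minus host came to 4.09 ± 0.01, 3.99 ± 0.44 and 3.60 ± 0.19 log2 units (adjusted p = 7.12e-06, 3.43e-06 and 7.04e-06, limma). A rising intron above a falling ORF was seen also in ERV1, the sulfhydryl oxidase of the mitochondrial intermembrane space, with differences of 2.20, 2.52 and 2.04, and in YPR063C, a gene of unknown function, with 2.65, 2.86 and 2.21.

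Of the 6 pairs with the intron below its host in all 3 strains, 5 (MOB1, YJR079W, MND1, QCR10 and MCT1) had an intron that rose in each strain under an ORF that rose more, and the other was MPT5. MOB1, a component of the mitotic exit network, had intron responses of 0.97, 0.83 and 0.37 beside ORF responses of 1.98, 1.71 and 1.16. The intron of YJR079W rose by 0.92, 0.84 and 0.69 while its ORF row rose by 2.08, 2.25 and 1.99. YJR079W overlaps the genes BNA2 and AIM24 in RefSeq assembly R64, and as the strand of the probes is not given in the sources used here, its values cannot be assigned to one of them. MPT5, an RNA-binding protein of the Puf family, had pair differences of -1.11 ± 0.17, -1.19 ± 1.42 and -1.41 ± 0.02. The large SD in HOG1-CCAAX came from replicate values of -0.19 and -2.19.

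Introns of snoRNA host genes fell in most cases. There are 8 such host genes with 10 tested introns, since RPL7A and RPL7B have 2 each. In hog1del 8 of these introns fell and 1 rose, and in HOG1-CCAAX and in HOG1-GFP 9 fell and 0 rose by limma. Medians were -0.90, -1.20 and -0.74, where all introns had 0.21, 0.10 and 0.26. The 71 small-RNA rows of the array had medians of -1.21, -1.22 and -1.05. The intron was above its host in 2 of the 10 pairs in hog1del, 4 in HOG1-CCAAX and 5 in HOG1-GFP, with median differences of 0.02, 0.31 and 0.41. Without HOG1-GFP replicate 2, 1 of these pairs in HOG1-GFP had the intron above its host. Over the omissions of 1 column, 6 to 8 of the 10 introns fell in hog1del, 8 to 10 in HOG1-CCAAX and 5 to 10 in HOG1-GFP. The difference between this set and the other introns was not tested.

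The intron response lay close to that of the snoRNA row in most of these genes, and in TEF4, ASC1, IMD4 and RPL7B the ORF was near the snoRNA row as well. EFB1 encodes a translation elongation factor subunit and holds SNR18. Its intron responded by 0.55 and 0.35 in hog1del, -0.56 and -0.38 in HOG1-CCAAX and -0.57 and -0.59 in HOG1-GFP. SNR18 responded by 0.35 and 0.27, -0.45 and -0.44, and -0.52 and -0.77, whereas the EFB1 ORF fell in each strain, with replicate responses of -1.11 and -1.37, -1.40 and -1.64, and -1.56 and -1.43. The intron and the snoRNA row rose in hog1del and fell in the other strains, and the ORF did not share that turn.

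IMD4, an IMP dehydrogenase that holds SNR54, and RPS22B, which holds SNR44, had deep falls, as had the second intron of RPL7B. The IMD4 intron fell by 1.65 ± 0.30, 1.94 ± 0.89 and 1.82 ± 0.10 in hog1del, HOG1-CCAAX and HOG1-GFP, and SNR54 had responses of -1.47, -1.85 and -1.79. The RPS22B intron fell by 1.90 ± 0.08, 1.80 ± 0.71 and 1.58 ± 0.55, beside -2.06, -1.94 and -1.83 for SNR44 and -1.01, -1.35 and -0.84 for the ORF. RPS22B was 1 of the 2 RPL/RPS genes whose intron was below its host in hog1del, by 0.89 ± 0.05 (adjusted p = 0.00218, limma).

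TEF4, an elongation factor subunit, and ASC1, a ribosome-associated WD-repeat protein, had introns that fell in every strain. TEF4 intron responses were -0.46, -1.27 and -1.27, with SNR38 at -0.69 and -0.43 in the replicates of hog1del, -1.53 and -1.02 in HOG1-CCAAX, and -0.91 and -1.10 in HOG1-GFP. ASC1 intron responses were -0.93, -0.97 and -0.86, with -0.84, -1.08 and -0.82 for SNR24. The intron of NOG2, a GTPase of large-subunit assembly, passed in none of the strains, with -0.31, -0.54 and -0.59, and its pair difference of 0.98, 1.75 and 0.69 was above 0 in all 3.

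The introns of RPL7B lay farther apart than those of RPL7A. The second RPL7B intron fell by 1.85, 1.86 and 1.51 in hog1del, HOG1-CCAAX and HOG1-GFP, and SNR59, the snoRNA of this gene, had -1.47, -1.59 and -1.46. The first RPL7B intron fell by 1.22, 1.30 and 0.60. In RPL7A, which holds SNR39, the first intron had -0.87, -1.07 and -0.44 and the second -0.83, -1.13 and -0.63. The difference between introns of one gene was not tested. With all snoRNA hosts left out, 71 of 81 RPL/RPS pairs in hog1del, 75 in HOG1-CCAAX and 77 in HOG1-GFP had the intron above the host, a choice made after the values were seen.

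**Figure D3:**
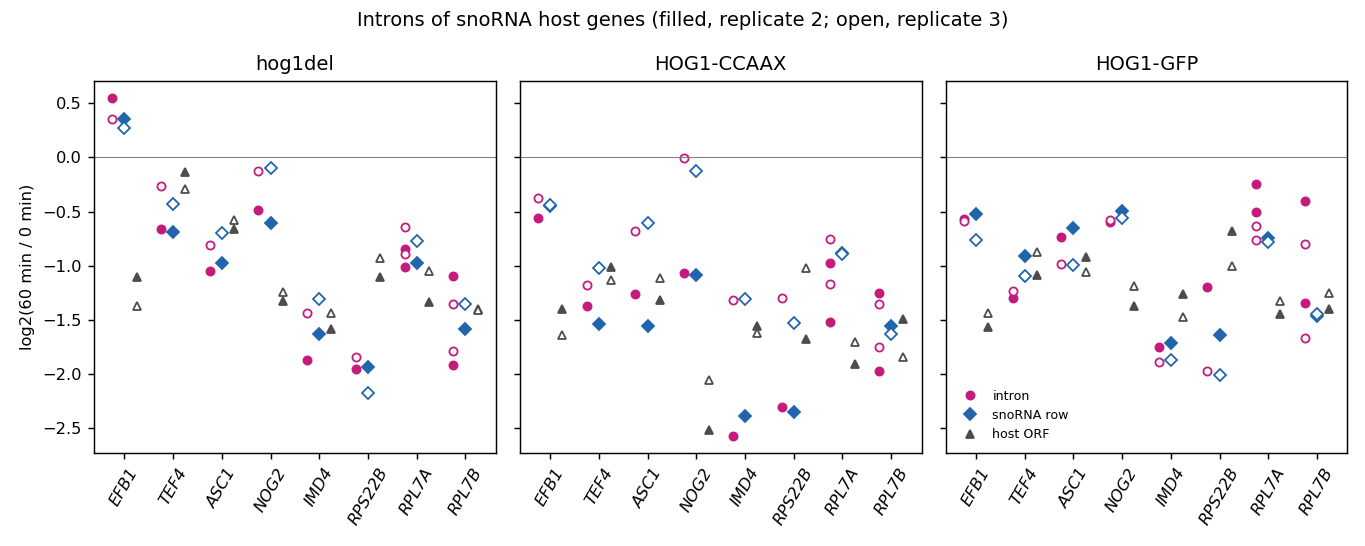
Responses (log2 of 60 min over 0 min) of the introns of snoRNA host genes (circles), of the snoRNA's own row (diamonds) and of the host ORF (triangles) in hog1del, HOG1-CCAAX and HOG1-GFP, with replicate 2 filled and replicate 3 open. RPL7A and RPL7B have 2 introns each and 1 snoRNA row each. In EFB1 the intron and snoRNA points lie above 0 in hog1del and below 0 in the other strains, with the ORF below -1 throughout.

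By their medians, the other kinds of row lay nearer to the ORF row of their gene than the introns of all 188 pairs did. Each kind covers a different set of genes. Identifiers with EE, EI and IE were read as junctions of exon with exon, exon with intron and intron with exon, which no source spells out. Exon-exon rows, which a spliced transcript would match, responded below the ORF in 12 of 18 pairs in hog1del, 11 in HOG1-CCAAX and 12 in HOG1-GFP, and above it in 0, 2 and 1. Their median differences were -0.81, -0.51 and -0.43. Exon-intron rows had medians of 0.03, 0.03 and -0.06 over 24 pairs, and intron-exon rows had -0.08, -0.11 and -0.13 over 23. These medians near 0 cover rows on both sides: 6 exon-intron rows passed above the ORF and 6 below in hog1del, 7 and 4 in HOG1-CCAAX, and 5 and 5 in HOG1-GFP, and for intron-exon rows the counts were 5 and 4, 6 and 3, and 5 and 6. In HNT1 the intron-exon row responded by 2.67, 3.02 and 2.37, near the intron, and the exon-intron row by 1.06, 1.55 and 1.08, near the ORF. In ERV1 the exon-intron row had 1.59, 1.55 and 1.15, nearer to the intron, and the intron-exon row 0.20, 0.18 and 0.02. Rows marked OCH and TIL, whose meaning is not given in the sources used here, had medians of 0.07, 0.02 and 0.07 over 208 pairs and of 0.04, 0.03 and 0.03 over 218. Of the OCH pairs, 23.1% in hog1del, 20.7% in HOG1-CCAAX and 18.8% in HOG1-GFP passed above the ORF and 20.2%, 16.8% and 17.8% below it, and the TIL pairs gave 23.9%, 22% and 17.9% above and 17.4%, 11.5% and 9.17% below. The 70 rows marked AAA had medians of 0.67, 0.71 and 0.46, and the 4 of them in intron host genes had -0.31, 0.11 and 0.26. The 3 AAA rows of RPL/RPS genes had 1.28, 1.47 and 0.68. In hog1del 43 of the 70 passed above the ORF, in HOG1-CCAAX 41 and in HOG1-GFP 36, and 8, 7 and 9 passed below it. For the 102 other nuclear intron pairs alone, the medians were 0.69, 0.72 and 0.44 in hog1del, HOG1-CCAAX and HOG1-GFP. AAA rows thus lay about as far from the ORF as these introns, and exon-exon rows lay farther in hog1del. On their own scale, the responses of 201 intergenic rows had medians of 0.02, -0.01 and -0.03.

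**Figure D4:**
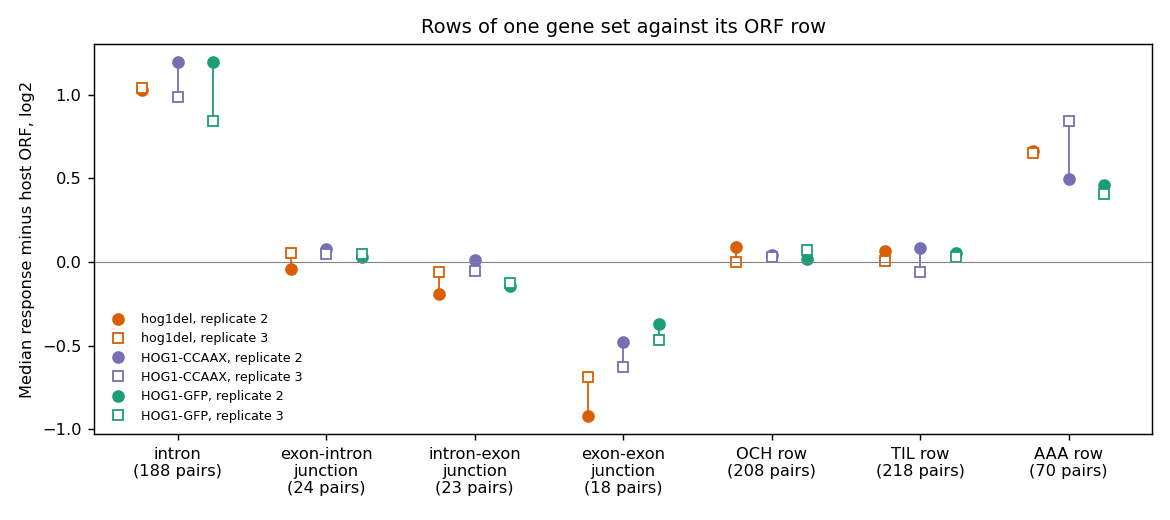
Median response of each kind of row minus that of the ORF row of the same gene, in log2 units, in replicate 2 (filled circles) and replicate 3 (open squares) of hog1del, HOG1-CCAAX and HOG1-GFP. Intron medians lie near 1, those of exon-exon rows below 0 and those of the junctions of exon and intron near 0.

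For 14 introns of 13 genes the intron, the ORF and an exon-exon junction of the gene were all tested. Both introns of RPL7B were set against the same junction, numbered 2, so the first was not matched to its own. Medians were -0.23, 0.03 and -0.08 for the introns in hog1del, HOG1-CCAAX and HOG1-GFP, -0.51, -0.72 and -0.54 for the ORFs, and -1.20, -1.13 and -0.99 for the junctions. The intron was above the junction in both replicates for 11, 12 and 11 of the 14, the first RPL7B intron among them in each strain. In HNT1 the junction responded by -0.61, -0.20 and -0.16 where the intron had 2.97, 3.49 and 2.88. In ERV1 the junction had -1.38, -0.98 and -0.91 where the intron had 1.65, 1.96 and 1.51. HAC1 and RPS22B went the other way in all 3 strains. RPS22B had -0.91, -0.97 and -0.88 at the junction and -1.90, -1.80 and -1.58 at the intron. HAC1 had 1.14, 1.51 and 1.58 at the junction and 0.99, 0.86 and 0.88 at the intron. HAC1 encodes the transcription factor of the unfolded protein response, and its intron is known to be cut out by the kinase Ire1 and tRNA ligase rather than by the spliceosome.

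Genes known to control their own splicing or precursor were a further list: RPL30, RPS14B, RPL22A, RPL22B, RPS9A, RPS9B, YRA1 and DBP2. Of their 8 introns 2 rose and 4 fell in hog1del, 2 rose and 4 fell in HOG1-CCAAX, and 3 rose and 1 fell in HOG1-GFP. Among all rows 33.7% rose and 36.5% fell in hog1del, 35.3% and 34.9% in HOG1-CCAAX, and 32.7% and 32.9% in HOG1-GFP. The intron was above its host in 7 of the 8 pairs in each strain, and below in 1, RPL30, in hog1del. The intron of YRA1, an mRNA export factor, rose in each strain, by 0.85, 1.17 and 0.86, and its ORF had 0.11, -0.49 and -0.19. DBP2, an RNA helicase, had the deepest ORF falls of the list, at 1.99, 2.50 and 2.67, and intron responses of -0.47, -1.05 and -0.47, of which that in HOG1-CCAAX passed.

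Introns of cytoskeletal genes either rose or did not pass. Of 11 introns 7 were tested, and 6 rose in hog1del, 4 in HOG1-CCAAX and 4 in HOG1-GFP. Among all rows 33.7%, 35.3% and 32.7% rose, and a set of 7 is small. The intron was above its host in 5, 5 and 4 of the 7 pairs and below it in 1, 2 and 1. For COF1, which encodes cofilin, the intron rose by 1.04, 1.15 and 0.67 while the ORF fell by 0.47, 0.47 and 0.39. The intron of PFY1, profilin, rose by 1.97, 1.66 and 1.17. That of ACT1, actin, passed in hog1del at 0.97 ± 0.72, with replicate values of 1.48 and 0.46, and had 0.17 and 0.10 in HOG1-CCAAX and HOG1-GFP.

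Of 11 introns of meiotic genes 3 were tested. The introns of AMA1, a meiotic activator of the anaphase-promoting complex, and MND1, a recombination factor, rose, by 2.38, 2.48 and 1.93 and by 1.93, 1.38 and 1.08, together with ORFs that rose by 1.82, 1.94 and 1.48 and by 2.46, 2.23 and 1.81. The intron of REC107 fell by 0.71, 0.37 and 0.48, and its ORF fell by 0.61, 0.37 and 0.44. In these genes the intron and the ORF moved in the same direction.

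The 11 tested mitochondrial introns have no ORF row that could be set beside them. In hog1del 2 rose and 0 fell by limma, in HOG1-CCAAX 0 rose and 1 fell, and in HOG1-GFP 1 rose and 0 fell. The replicates of hog1del differed widely there, with medians of 2.07 in replicate 2 and -0.05 in replicate 3. Of the 15 introns in which hog1del replicate 2 exceeded replicate 3 by at least 1 log2 unit, 8 were mitochondrial. For intron 5 of COB, cytochrome b, the levels were 2.63 and 1.15 at 60 min against -1.05 and 1.47 at 0 min in hog1del replicates 2 and 3. Without hog1del replicate 3, 9 of the 11 rose in hog1del, and without hog1del replicate 2, 0 did.

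Transcripts of the machinery itself changed in both directions. Of 79 tested genes of splicing factors, 29 rose and 30 fell in hog1del, 31 rose and 20 fell in HOG1-CCAAX, and 28 rose and 14 fell in HOG1-GFP, beside 33.7% and 36.5%, 35.3% and 34.9%, and 32.7% and 32.9% of all rows. MUD2, which acts in branch point recognition, rose by 1.97, 2.22 and 2.49, and STO1, the large subunit of the nuclear cap-binding complex, fell by 1.55, 1.60 and 1.40. Of 13 tested genes of RNA turnover, 1 rose and 10 fell in hog1del, 2 rose and 10 fell in HOG1-CCAAX, and 1 rose and 9 fell in HOG1-GFP. MTR4, a helicase that feeds RNA to the nuclear exosome, fell by 2.26, 2.53 and 2.02, and RRP6, a nuclease of the nuclear exosome, fell by 1.16, 1.43 and 1.27. DBR1, the debranching enzyme, rose by 0.39, 0.73 and 0.73. Whether these changes bear on the introns was not tested.

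Between hog1del and HOG1-GFP, the share of introns whose response differed was near that of all rows. Of 208 introns, 10 were higher (4.81%) and 22 lower (10.6%) in hog1del, where 7.6% and 7.75% of all rows were, 15.4% in all. In HOG1-CCAAX 3 were higher (1.44%) and 13 lower (6.25%) than in HOG1-GFP, where 2.48% and 2.16% of all rows were, 4.64% in all. With a replicate block, 0 were higher and 2 lower there by limma. Between HOG1-CCAAX and hog1del 1 was higher and 1 lower (0.481% each), where 1.96% and 1.89% of all rows were, 3.86% in all. Both contrasts with HOG1-GFP share its samples. All 15 RPL/RPS introns that differed between hog1del and HOG1-GFP were lower in hog1del, and all 12 that differed between HOG1-CCAAX and HOG1-GFP were lower in HOG1-CCAAX. Their host ORFs shifted the same way. Of 85, 6 were lower and 0 higher in hog1del, and 8 lower and 0 higher in HOG1-CCAAX by limma. Median differences from HOG1-GFP were -0.33 for introns and -0.20 for hosts in hog1del, and -0.48 and -0.51 in HOG1-CCAAX. The count for hog1del was 1 RPL/RPS intron without HOG1-GFP replicate 2, 6 without HOG1-GFP replicate 3, 2 without hog1del replicate 2, 1 higher and 6 lower without hog1del replicate 3, and 17 lower without either HOG1-CCAAX replicate. For HOG1-CCAAX it was 0 without either HOG1-GFP replicate, 0 without HOG1-CCAAX replicate 2, 9 without HOG1-CCAAX replicate 3, and 3 without either hog1del replicate. In HOG1-GFP replicate 2 exceeded replicate 3 by a median of 0.43 across the RPL/RPS introns.

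The distance between intron and host was called different less often, though pair values combine 2 probes and the tests may differ in power. This distance was higher in 5 and lower in 5 of 188 pairs for hog1del against HOG1-GFP (2.66% each way). For HOG1-CCAAX against HOG1-GFP it was higher in 1 and lower in 1 (0.532% each way). For HOG1-CCAAX against hog1del limma called 0 pairs, with 18 at an unadjusted p under 0.05, 3 after quantile normalization and 0 to 11 when 1 column was left out. Left-out columns moved the others too, to 1 to 27 pairs for hog1del against HOG1-GFP and 0 to 19 for HOG1-CCAAX against HOG1-GFP.

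KEI1, which encodes a subunit of inositol phosphorylceramide synthase, had an intron that rose in HOG1-GFP and fell in the other strains. Its levels were -0.27 and -0.52 at 60 min against 0.31 and 0.30 at 0 min in hog1del, -0.67 and -0.42 against 0.27 and -0.06 in HOG1-CCAAX, and 2.22 and 1.87 against 0.06 and 0.56 in HOG1-GFP. Only the HOG1-GFP cultures at 60 min stood above 1. The KEI1 ORF fell in all strains, by 1.43 ± 0.05, 1.36 ± 0.38 and 1.23 ± 0.14. The KEI1 intron response was lower by 2.43 log2 units in hog1del than in HOG1-GFP (difference -2.43, adjusted p = 0.00557, limma) and lower in HOG1-CCAAX with a difference of -2.38 (adjusted p = 0.0159, limma). Intron minus host differed by -2.24 (adjusted p = 0.00218) and -2.25 (adjusted p = 0.00533). Every omission of 1 column kept the difference for hog1del past the threshold. For HOG1-CCAAX the KEI1 intron gave adjusted p = 0.113 without HOG1-GFP replicate 2 and 0.0542 without HOG1-GFP replicate 3, and the pair gave adjusted p = 0.0715 without HOG1-GFP replicate 2.

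RPL30 encodes a large-subunit protein that is known to bind its own precursor and block its splicing. Its intron had levels of -1.20 and -1.15 at 60 min against 0.80 and 0.69 at 0 min in hog1del, -1.07 and -1.11 against 0.40 and 0.42 in HOG1-CCAAX, and 0.74 and 0.56 against 0.62 and 1.02 in HOG1-GFP. The groups at 60 min did not overlap between HOG1-GFP and either other strain. The RPL30 intron response was -1.92 ± 0.11 in hog1del, -1.50 ± 0.04 in HOG1-CCAAX and -0.17 ± 0.41 in HOG1-GFP, and the RPL30 ORF fell by 1.18 ± 0.12, 1.34 ± 0.52 and 1.09 ± 0.03. The difference in intron response was -1.75 for hog1del against HOG1-GFP (adjusted p = 0.00457, limma), which stayed past the threshold in every omission. It was -1.33 for HOG1-CCAAX against HOG1-GFP (adjusted p = 0.0259), which gave adjusted p = 0.183 without HOG1-GFP replicate 2, 0.0701 without HOG1-GFP replicate 3, 0.0685 without HOG1-CCAAX replicate 2 and 0.0502 with a replicate block. The RPL30 pair differed by -1.65 for hog1del (adjusted p = 0.0141), with 0.126 and 0.0695 without HOG1-GFP replicates 2 and 3, and 0.0617 without hog1del replicate 2.

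RPL20B, another large-subunit gene, had intron responses of -1.64 ± 0.03, -1.70 ± 0.11 and -0.29 ± 0.61, beside ORF falls of 2.16 ± 0.04, 2.51 ± 0.45 and 1.80 ± 0.01. Its differences from HOG1-GFP were -1.35 in hog1del (adjusted p = 0.0209, limma) and -1.41 in HOG1-CCAAX (adjusted p = 0.0396). In hog1del the RPL20B call was lost without HOG1-GFP replicate 2 (adjusted p = 0.0861), without hog1del replicate 2 (0.0904) and without hog1del replicate 3 (0.0578). In HOG1-CCAAX it was lost in each of the 6 omissions, with adjusted p between 0.0542 and 0.192. Its responses in HOG1-GFP were 0.14 in replicate 2 and -0.72 in replicate 3.

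**Figure D5:**
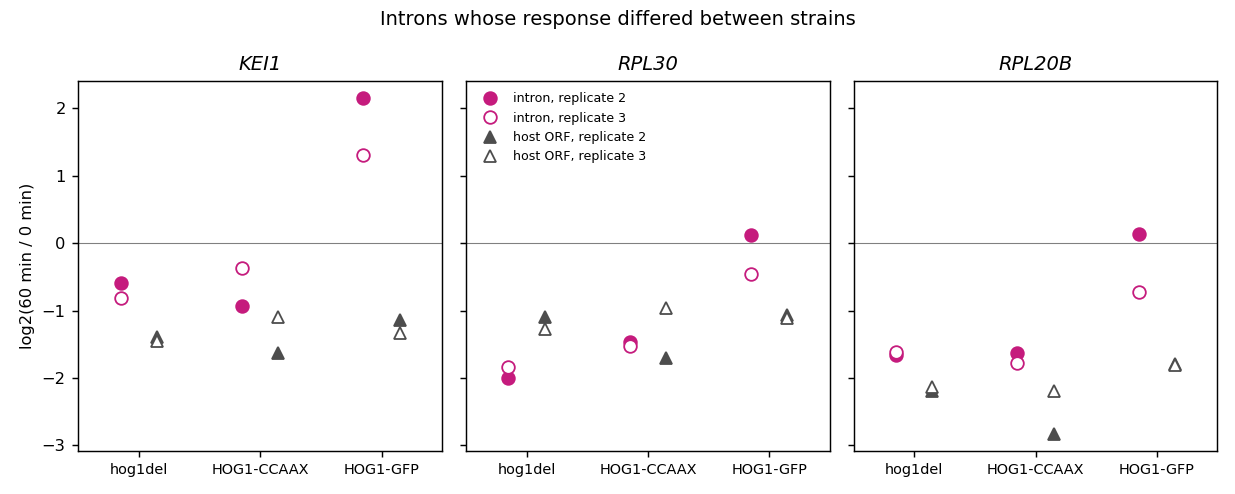
Responses (log2 of 60 min over 0 min) of the introns (circles) and ORFs (triangles) of KEI1, RPL30 and RPL20B in hog1del, HOG1-CCAAX and HOG1-GFP, with replicate 2 filled and replicate 3 open. The introns stand higher in HOG1-GFP than in the other strains, while every ORF point lies below 0.

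Before the shock, no intron passed the test between strains in the fit without a replicate block. At 0 min limma called 0 of 208 introns and 0 of 188 pairs for hog1del against HOG1-GFP, HOG1-CCAAX against HOG1-GFP and HOG1-CCAAX against hog1del, where 0.659%, 0.322% and 0.477% of all rows passed. At an unadjusted p under 0.05 there were 11, 32 and 30 introns and 12, 13 and 11 pairs. The lowest adjusted p values were 0.0588, 0.0632 and 0.265 for introns and 0.148, 0.171 and 0.224 for pairs. With a replicate block 1 intron was higher in HOG1-CCAAX than in HOG1-GFP. Other settings gave 0 or 1 introns.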

How the data were processed

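Per the labels, RNA of each culture was amplified to amino-allyl RNA, and the Cy3 sample was hybridized against a common Cy5 reference pool on 2-colour arrays. Replicates 2 and 3 make up 24 of the 42 samples, deposited as 1 sample for each of the duplicate features on a slide. The deposited level tables hold log2 ratios of reference over sample that the authors averaged over duplicate features, and signs were turned. The fold changes the authors deposited equalled level differences to 4.99e-07. The sources used here do not give scaling, background treatment or spot filters. Arrays give no depth, and their number limits precision.

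R 4.3.3 and limma 3.58.1 fitted the responses (two-sided moderated test, eBayes after lmFit) with strain the only term, over 7132 rows with a value in all 12 columns, and adjusted by Benjamini-Hochberg. Intron minus host values were fitted with their own prior, and their p-values were adjusted together with those of all rows. Levels at 0 min used 6 columns. The fit was tested on simulated data with known changes. Python 3.11.15 with pandas 2.3.3 and numpy 2.4.6 made the tables.

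Members and lists were chosen with earlier results of these data known. For each strain and for RPL/RPS and other introns, up to 4 introns and 4 pairs each way with the most extreme means and equal sign in both replicates could be named, whether or not they passed, likewise for each contrast of strains over all introns, plus all tested members of the lists and up to 4 genes of splicing and of turnover per strain with the largest change. The RPL43 and RPS27 copies and the junction rows of HNT1, ERV1, HAC1 and RPS22B were picked after their values were seen, as were the counts without snoRNA hosts and the counts per group without 1 column. Alternatives were a replicate block, median centring, quantile normalization, at least 1 value per strain, single technical columns, a 2-fold minimum, introns of a gene averaged, and omission of each column.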

Additional observations from a re-analysis of the deposited data

Results flagged for a closer look

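Responses of several introns, or of introns relative to their hosts, differed between strains by a test of the difference itself (limma, adjusted over all rows), and each is given here with its value. For hog1del minus HOG1-GFP the intron differences were -2.43 for KEI1, -1.75 for RPL30 and -1.35 for RPL20B. In the same contrast the differences of intron minus host were -2.24 for KEI1, -1.65 for RPL30 and -1.22 for RPL16B, and on the other side 1.20 for RPL27B, 1.09 for SFT1, 1.04 for RPS9A and 1.01 for RPS27A.

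For HOG1-CCAAX minus HOG1-GFP the intron differences were -2.38 for KEI1, -1.41 for RPL20B, -1.33 for RPL30, 1.22 for MRPL15 and 0.80 for QCR9, and the differences of intron minus host were -2.25 for KEI1 and 1.18 for RPL27B. For HOG1-CCAAX minus hog1del the intron of OM14 differed by 1.01.

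Of these, the KEI1 intron, the KEI1 pair and the RPL30 intron in hog1del minus HOG1-GFP stayed past the threshold in every omission of 1 column. The calls for RPL27B, SFT1, RPS9A and RPS27A in hog1del minus HOG1-GFP were each lost without any 1 column of the contrast, with adjusted p up to 0.15, 0.106, 0.153 and 0.184. The RPL16B call was lost without either HOG1-GFP replicate or hog1del replicate 3, with adjusted p up to 0.19. The calls for MRPL15, QCR9 and RPL27B in HOG1-CCAAX minus HOG1-GFP were lost in 5 of 6 omissions each, and the OM14 call in 4. The RPL27B pair differed while its ORF, not its intron, differed between strains. The RPS9A intron responded by -0.74 in hog1del and -0.40 in HOG1-GFP, so its higher pair value in hog1del reflects a lower ORF response. The RPS27A intron had 0.47 and 0.07 in these strains, which covers only part of its pair difference. The rest lay in a lower ORF response in hog1del.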

How the results depend on the processing

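Each strain and time has 2 replicate columns, so 1 column can move a count, and levels near the array background could not be identified. Among 3927 values of named genes under alternatives, 3699 kept their side of the threshold, 150 fell below it, 78 passed it and 0 reversed; leaving out HOG1-GFP replicate 2 lost most, 37 of 357. Intron responses past 2-fold numbered 54, 63 and 34 in hog1del, HOG1-CCAAX and HOG1-GFP, and 13, 9 and 1 differed between strains by that much (hog1del minus HOG1-GFP, HOG1-CCAAX minus HOG1-GFP, HOG1-CCAAX minus hog1del). Deviations of equal replicate number correlated at -0.26 to 0.03 for responses and -0.13 to -0.07 for levels at 60 min, so there the numbers are not shown to pair the samples, and at 0.20, 0.18 and 0.35 for levels at 0 min (hog1del with HOG1-GFP, HOG1-CCAAX with HOG1-GFP, HOG1-CCAAX with hog1del), where samples of equal number deviated together. With a replicate block, 2 introns and 1 pair differed in HOG1-CCAAX minus HOG1-GFP, 0 introns in HOG1-CCAAX minus hog1del, and 1 intron at 0 min in HOG1-CCAAX minus HOG1-GFP. Quantile normalization gave 4 introns and 3 pairs in HOG1-CCAAX minus hog1del, 17 pairs in hog1del minus HOG1-GFP, 5 pairs in HOG1-CCAAX minus HOG1-GFP, 1 intron at 0 min in hog1del minus HOG1-GFP, and medians of intron minus host of 1.51 for RPL/RPS in hog1del and 0.67 for other genes in HOG1-CCAAX. Median centring gave 1 intron at 0 min in HOG1-CCAAX minus HOG1-GFP and -0.37 as the RPL/RPS intron median in HOG1-CCAAX. Single technical columns gave 1 pair in HOG1-CCAAX minus HOG1-GFP and 1 in HOG1-CCAAX minus hog1del. With introns of a gene averaged, that intron median was -0.29 and the RPL/RPS pair median in hog1del 1.42, as with at least 1 value per strain. The causes were not tested. Leaving out 1 column gave, in hog1del, HOG1-CCAAX and HOG1-GFP, 100 to 138, 111 to 137 and 61 to 119 introns and 120 to 149, 130 to 145 and 103 to 145 pairs. Contrasts gave 2 to 42 introns and 1 to 27 pairs (hog1del minus HOG1-GFP), 0 to 16 and 0 to 19 (HOG1-CCAAX minus HOG1-GFP), and 0 to 15 and 0 to 11 (HOG1-CCAAX minus hog1del). At 0 min they gave 0 to 1, 0 to 0 and 0 to 1 introns and 0 to 0 pairs. Intron medians were -0.20 to -0.14, -0.35 to -0.31 and -0.07 to 0.47 for RPL/RPS and 0.37 to 0.65, 0.36 to 0.45 and 0.21 to 0.43 for others. Pair medians were 1.38 to 1.43, 1.34 to 1.80 and 1.44 to 1.88 for RPL/RPS and 0.64 to 0.78, 0.64 to 0.72 and 0.30 to 0.56 for others.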
